A study of Homo sapiens with 6 samples.

Results

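Classical cadherins and their catenins form the adherens junction, and 9 of these genes were examined among the 26334 symbols counted in clones of MiaPaCa2, an established human line of pancreatic ductal adenocarcinoma cells. The members were taken by symbol: the type I cadherins CDH1 (E-cadherin), CDH2 (N-cadherin), CDH3 (P-cadherin) and CDH4 (R-cadherin), the type II cadherins CDH11 (OB-cadherin) and CDH24, and the catenins CTNNA1 (alpha-catenin), CTNNB1 (beta-catenin) and CTNND1 (p120-catenin). Of the 6 libraries, 3 came from WT clones, which kept the gene ZEB1, and 3 from ZEB1-KO clones, in which ZEB1 had been deleted with CRISPR-Cas9. All 6 clones were grown from GFP+ cells sorted after electroporation: the WT clones had received the plasmid pSpCas9-2A-GFP, and the ZEB1-KO clones the same kind of plasmid with a guide RNA to ZEB1. Cells were kept in DMEM with 10% serum. Each library was made by SMART-Seq2 from 2000 lysed cells, a method that copies polyadenylated RNA, does not record the strand and has no molecular identifiers. Each replicate is 1 clone, so variation between clones and between cultures cannot be told apart. Values of single libraries are given in the order of replicates 1, 2 and 3.

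Cadherins are single-pass membrane proteins whose outer domains bind cadherins on the neighbouring cell in the presence of calcium. Inside the cell, beta-catenin binds the end of the cadherin tail and alpha-catenin links it to actin, while p120-catenin binds nearer the membrane and keeps the cadherin at the surface. ZEB1 is a zinc-finger repressor that binds E-box motifs and is best known for silencing CDH1 when epithelial cells take on mesenchymal traits. A switch from E-cadherin to N-cadherin is the textbook mark of that transition.

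Library totals ran from 18909305 to 42876693 counts. A floor of 3 counts in 1 library corresponded to 0.0687 to 0.150 CPM, where CPM is the count scaled to the TMM-corrected size of the library. ZEB1 stood at 34.0, 31.2 and 33.6 CPM for WT and at 3.34, 3.46 and 11.5 CPM for ZEB1-KO clones, so that ZEB1-KO replicate 3 kept the most ZEB1 transcript of the edited clones. The keratin genes KRT8 and KRT18 and the vimentin gene VIM, fixed as markers of a carcinoma line with mesenchymal traits, were present in every library, with a sum of 5867 to 6531 CPM for WT and 5261 to 6878 CPM for ZEB1-KO clones. Within that sum KRT8 ran from 720 to 875 CPM for WT and 1632 to 2117 CPM for ZEB1-KO clones, and VIM from 3045 to 3788 CPM for WT and 1342 to 2175 CPM for ZEB1-KO clones. Their part in the results was not tested. The fibroblast markers DCN and LUM and the islet markers INS, GCG and SST had 0 counts in all libraries, and the fibroblast marker PDGFRB had at most 2. The acinar markers PRSS1, CPA1 and CELA3A summed to at most 0.0810 CPM for WT and 0.200 CPM for ZEB1-KO clones. The blood markers summed to 0.567 to 11.2 CPM for WT and 0.125 to 2.34 CPM for ZEB1-KO clones, nearly all of it CD14, with PTPRC at 0 to 3 counts and CD3E at 0.

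Of the 9 members, only CTNNA1, CTNNB1 and CDH24 had enough counts for edgeR's quasi-likelihood test. Of these 3, 0 passed an adjusted p of 0.05, where 0.176% of the 13659 genes tested did (0.117% higher and 0.0586% lower in ZEB1-KO clones), and none had an unadjusted p below 0.05, where 17.7% of genes did. The likelihood ratio test likewise called 0 of the 3 (4.52% of all genes, 2.75% higher and 1.76% lower). DESeq2, which gave 4 members an adjusted p, called 1 of them, CDH2, higher in ZEB1-KO clones, where 7.12% of its 13135 genes were called and 4.34% were called higher. CDH2, with 1, 0 and 0 counts in WT clones, could be tested only through its counts in ZEB1-KO clones. Without ZEB1-KO replicate 3 it had no adjusted p, so this call adds no support. In the authors' deposited table only CTNNA1 and CTNNB1 of the members are listed, with adjusted p-values of 0.615 and 0.594, and 4.75% of its 11013 genes passed 0.05. The remaining 6 members fall under the filter on low counts and are described by their counts.

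**Figure D1:**
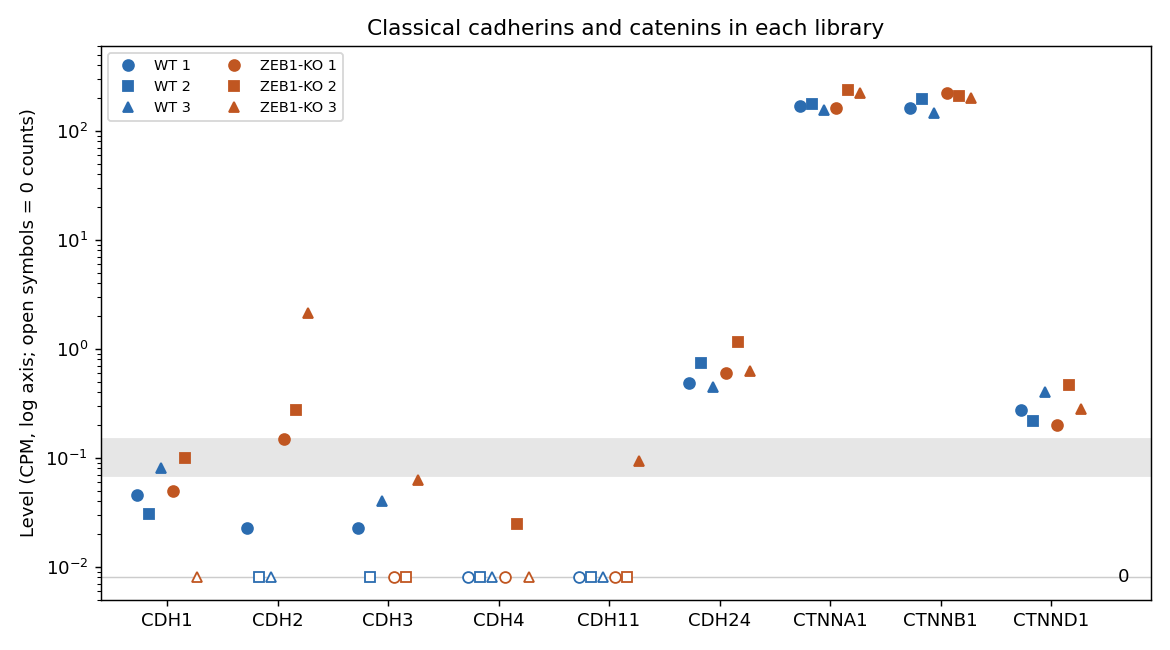
Level of each member in each library in CPM on a log axis, with WT libraries in blue and ZEB1-KO libraries in orange, open symbols on the lowest line for 0 counts, and a grey band for the range of the 3-count floor over libraries. CTNNA1 and CTNNB1 lie between 145 and 238 CPM, CDH24 between 0.446 and 1.16 CPM, and CDH1, CDH3, CDH4 and CDH11 within or under the floor band, while CDH2 spreads from 0 to 2.15 CPM.

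CDH1, whose product E-cadherin holds epithelial cells together, stayed at or near the count floor in both groups. Its counts were 2, 1 and 2 for the WT clones and 1, 4 and 0 for the ZEB1-KO clones. The groups overlapped, and only ZEB1-KO replicate 2 exceeded the floor of 3 counts. Pooled over libraries, 5 counts in each group gave a ratio of 1.09 with a 95% counting interval of 0.250 to 4.73, so that a difference inside that interval was not detectable at this depth. The highest CDH1 level in any ZEB1-KO clone was 0.0988 CPM.

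CDH3, which encodes the P-cadherin of basal epithelial cells and neighbours CDH1 on chromosome 16, was equally low. It was counted 1, 0 and 1 times in WT and 0, 0 and 2 times in ZEB1-KO clones, below the floor in all 6 libraries. CDH4, the gene for R-cadherin of the developing retina and brain, had 1 count in ZEB1-KO replicate 2 and 0 counts in the other 5 libraries. CDH11, whose product OB-cadherin is typical of osteoblasts and mesenchymal cells, had 3 counts in ZEB1-KO replicate 3 and 0 elsewhere. For these 3 cadherins no fold change is given, since both groups lie at or under the floor.

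CDH2, which encodes the N-cadherin of neural and mesenchymal cells, was the only member cadherin whose groups did not overlap. Every ZEB1-KO value lay above every WT value, as for 11.9% of the genes tested. It was counted 1, 0 and 0 times in WT and 3, 11 and 69 times in ZEB1-KO clones, or 0.150, 0.272 and 2.15 CPM in the latter. ZEB1-KO replicate 3 held most of the counts, and ZEB1-KO replicate 1 lay at its floor. Pooled, 83 counts in ZEB1-KO against 1 count in WT clones gave a ratio of 90.3 with a 95% counting interval of 15.8 to 3608. Without ZEB1-KO replicate 3 the pooled counts were 14 against 1 and the ratio was 23.3, with an interval of 3.55 to 985. These intervals hold no variation between clones, which spanned 3 to 69 counts within the ZEB1-KO group.

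The call for CDH2 depended on the test and on ZEB1-KO replicate 3. DESeq2 estimated a log2 fold change of 6.32 ± 1.62 (SE; adjusted p = 0.00405), while edgeR's quasi-likelihood test without a filter gave 6.01 with an adjusted p of 0.0594. With the filter, CDH2 entered the quasi-likelihood test only when WT replicate 3 or ZEB1-KO replicate 1 was left out, and was not called in either case (adjusted p = 0.301 and 0.161). The likelihood ratio test without a filter gave an adjusted p of 0.00348. Without ZEB1-KO replicate 3, DESeq2 gave CDH2 no adjusted p. Without each of the other libraries its adjusted p was 0.00292 to 0.0406, but these runs all keep the 69 counts through which CDH2 could be tested and add no support. An exact permutation test of the CPM values, two-sided, gave p = 0.1, the smallest that 3 against 3 libraries allow. The highest CDH2 value fell in the ZEB1-KO clone with the most ZEB1 transcript left, and a relation between these levels was not tested. The fibroblast list (DCN, LUM and PDGFRB) summed to at most 0.0458 CPM for WT and 0.0998 CPM for ZEB1-KO clones, with 0 in ZEB1-KO replicates 2 and 3.

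To show what lies upstream of the cadherin whose groups did not overlap, the 250 bases before the upstream one of 2 RefSeq start sites of CDH2 are given (GRCh38.p14, chr18:28177131-28177380, minus strand), 5′ to 3′, with CG dinucleotides in capitals.
CDH2 promoter: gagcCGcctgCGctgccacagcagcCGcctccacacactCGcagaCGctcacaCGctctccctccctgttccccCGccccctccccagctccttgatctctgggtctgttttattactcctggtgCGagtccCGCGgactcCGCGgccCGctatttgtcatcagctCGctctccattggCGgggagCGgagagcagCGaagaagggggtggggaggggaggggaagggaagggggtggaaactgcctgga
The window was 66.0% G or C with 17 CG dinucleotides, against medians of 58.0% and 11 over 35116 RefSeq windows of the same length. It held neither CACCT nor its reverse complement AGGTG, the core of the E-box motif bound by ZEB1, a pattern present in 45.4% of all windows, and therefore no CACCTG or CAGGTG, present in 17.5%. Which start site the clones used was not tested, and the absence says only that these letters are not in this window.

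Of the 6 member cadherins, only CDH24, a type II cadherin that binds catenins, lay above the floor in all 6 libraries. It reached 0.481, 0.740 and 0.446 CPM for WT and 0.599, 1.16 and 0.623 CPM for ZEB1-KO clones, from 11 to 47 counts. ZEB1-KO replicate 2 stood highest, and the other ZEB1-KO values lay within the WT range. The log2 fold change of 0.53 ± 0.44 (SE; 95% interval -0.49 to 1.54) did not pass edgeR's quasi-likelihood test (adjusted p = 0.567). Without ZEB1-KO replicate 2 it was 0.13.

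Levels of different genes can be set side by side only per length, here as CPM per kilobase of exon in the GENCODE 29 basic set, which is not the annotation the authors used. On that scale CDH24 ran from 0.125 to 0.327 over all libraries, CDH1 from 0 to 0.0199 and CDH3 from 0 to 0.0124. CDH2 was at 0 to 0.00515 in WT clones, below CDH24 in every one of them, and at 0.0337, 0.0611 and 0.483 in the ZEB1-KO clones. Among the 6 member cadherins, CDH24 was therefore the highest per length in 5 of the 6 libraries. In ZEB1-KO replicate 3 CDH2 was the highest, at 0.483 against 0.175 for CDH24. Other cadherins were not scaled by length. CDH1, CDH3, CDH4 and CDH11 could not be ranked among themselves beyond counting error.

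Summed over the 6 cadherins among the members, the level was 0.573, 0.771 and 0.567 CPM for WT and 0.798, 1.56 and 2.93 CPM for ZEB1-KO clones. The ZEB1-KO sums lay above the WT sums, with CDH24 making up most of the sum in ZEB1-KO replicate 2 and CDH2 in ZEB1-KO replicate 3. The ZEB1-KO sums of 16 other cadherins also lay above the WT sums. These genes, fixed as a list of vascular, neural, kidney and gut members of the family, summed to 1.54 to 4.26 CPM for WT and 4.54 to 5.84 CPM for ZEB1-KO clones. The higher sums were therefore not particular to the 6 cadherins among the members.

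Among those 16, only CDH5, CDH10 and CDH12 entered the quasi-likelihood test, and 0 passed an adjusted or an unadjusted p of 0.05 (0 also by DESeq2). CDH12, a cadherin of the brain, averaged 0.755 ± 0.128 CPM for WT against 1.72 ± 1.09 CPM for ZEB1-KO (SD, n = 3 per group), with ZEB1-KO replicate 1 at 0.698 CPM inside the WT range. Its log2 fold change of 1.19 ± 0.52 (SE) gave an edgeR adjusted p of 0.285. CDH5, the VE-cadherin of blood vessels, was counted 24, 3 and 1 times in WT and 59, 1 and 22 times in ZEB1-KO clones. The groups overlapped, with ZEB1-KO replicate 2 the lowest of all 6, and the log2 fold change of 2.24 ± 1.30 (SE) gave an edgeR adjusted p of 0.399. The endothelial markers PECAM1, VWF and CLDN5 summed to 0.203 to 0.617 CPM for WT and 0.200 to 0.568 CPM for ZEB1-KO clones. VWF had 0 counts in all but ZEB1-KO replicate 3. ZEB1-KO replicate 1, highest in CDH5, had 4 PECAM1 counts, as did WT replicate 3, so their order in that sum lies within counting error. The part of endothelial cells in the CDH5 counts was not tested. CDH10, another neural cadherin, was counted 72, 29 and 0 times in WT and 24, 68 and 37 times in ZEB1-KO clones.

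**Figure D2:**
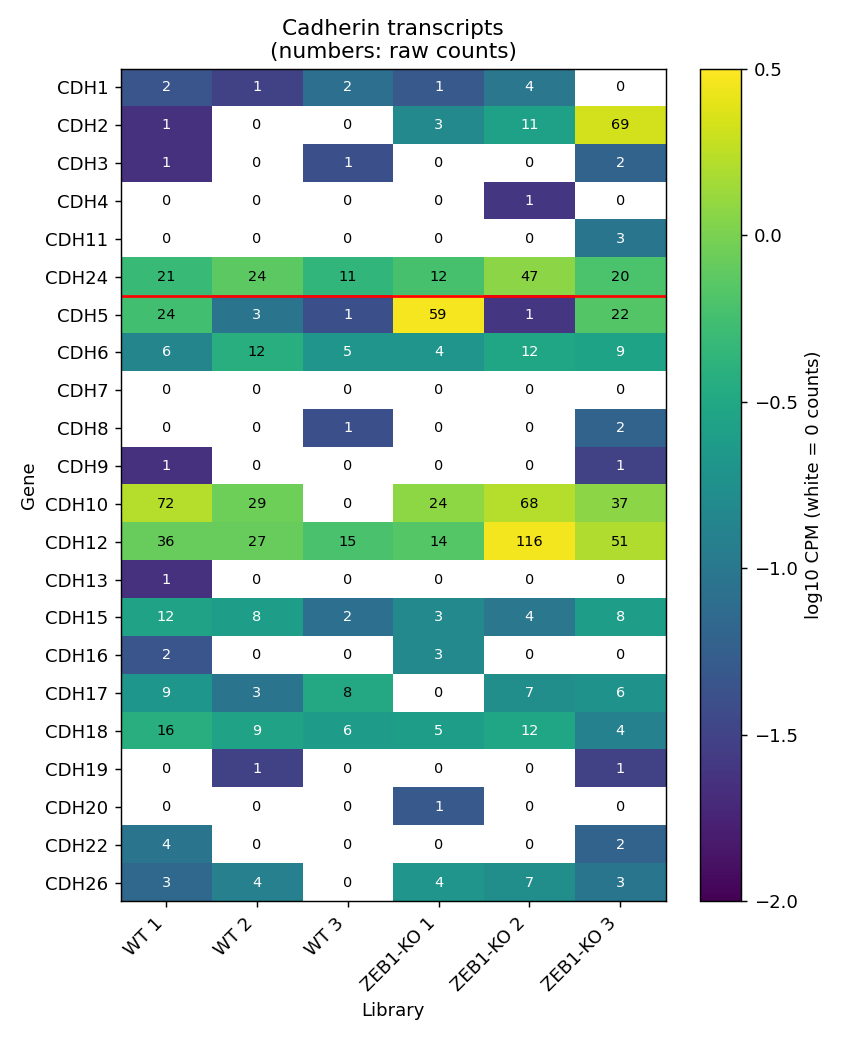
Raw counts (numbers) and log10 CPM (colour, white for 0 counts) of 22 cadherin genes in rows over the 6 libraries in columns. The 6 cadherins among the members lie above the red line. CDH24 is counted in every library, CDH2 is filled in the ZEB1-KO columns and reaches 69 counts in ZEB1-KO replicate 3, and CDH5 and CDH10 vary within both groups.

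The catenins CTNNA1 and CTNNB1 were counted 3276 to 9634 times in every clone. CTNNA1, which couples the cadherin complex to actin, stood at 168, 178 and 154 CPM for WT and at 163, 238 and 224 CPM for ZEB1-KO clones. ZEB1-KO replicates 2 and 3 were above every WT clone, while ZEB1-KO replicate 1 lay within the WT range, so the groups overlapped. The group means were 166.6 ± 11.8 CPM for WT and 208 ± 39.5 CPM for ZEB1-KO (SD, n = 3 per group). The fold of 1.25 had a 95% interval of 0.894 to 1.75, or 0.32 ± 0.21 (SE) as a log2 fold change, at an edgeR adjusted p of 0.458.

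CTNNB1, whose product is both the cadherin-bound linker and the transcriptional effector of Wnt signalling, stood at 162, 195 and 145 CPM for WT and at 220.5, 210.2 and 198 CPM for ZEB1-KO clones. Each ZEB1-KO value exceeded each WT value, though ZEB1-KO replicate 3 and WT replicate 2 were close. Groups did not overlap for 1 of the 3 tested members, against 23.6% of all genes tested and 11.9% in this direction. The fold was 1.25 with an interval of 0.919 to 1.71, or 0.33 ± 0.20 (SE) as a log2 fold change, at an edgeR adjusted p of 0.417. For both catenins the interval lies below 1.75 and holds a fold of 1.

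On the authors' TPM scale, which corrects for gene length within the 11013 listed genes, CTNNA1 was at 59.7, 52.8 and 49.4 in WT and 60.8, 101 and 84.9 in ZEB1-KO clones. CTNNB1 was at 67.3, 67.8 and 54.7 in WT and 96.2, 104 and 88.2 in ZEB1-KO clones. CTNNA1 was thus below CTNNB1 in all 6 libraries, at a ratio of 0.778 to 0.904 in WT clones and of 0.632, 0.965 and 0.963 in ZEB1-KO clones. The order rests on the gene lengths used: per kilobase of exon in the GENCODE 29 basic set, 3.92 kb for CTNNA1 and 7.86 kb for CTNNB1, CTNNA1 was the higher one in every library, for example at 42.9 against 20.6 CPM per kilobase in WT replicate 1. Over the exons of all GENCODE 29 transcripts the same library had 19.0 against 13.5 CPM per kilobase, and in ZEB1-KO replicate 1 the 2 genes were level at 18.5. Log2 fold changes on the TPM plus 1 scale, over genes of mean TPM of at least 1, were larger, at 0.57 and 0.60, but so was the median of all genes at 0.23, and relative to that median they were 0.34 and 0.37.

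**Figure D3:**
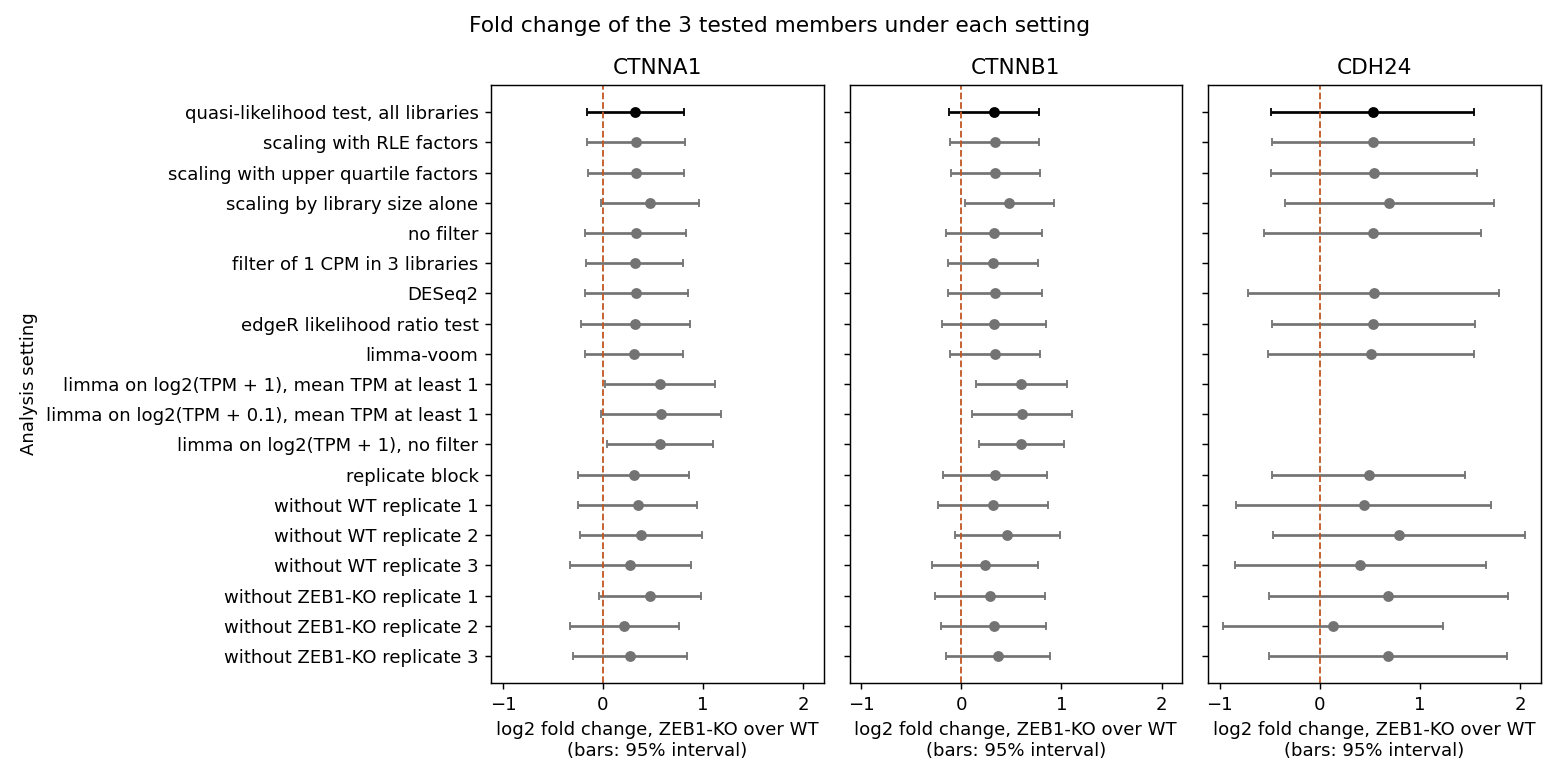
Log2 fold change of ZEB1-KO over WT with its 95% interval for CTNNA1, CTNNB1 and CDH24 (columns) under settings of the analysis (rows). The dashed line marks 0, and the quasi-likelihood test on all libraries is in black. DESeq2 without each library and the likelihood ratio test without a filter are not drawn. Every point lies above 0, and rows without a point are settings in which CDH24 was not tested.

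The windows upstream of the main catenin genes are shown beside that of CDH2, since they belong to members present at 145 to 238 CPM rather than near 0 (RefSeq, GRCh38.p14, plus strand, 250 bases before the first listed start, CG dinucleotides in capitals). CTNNA1 is at chr5:138753175-138753424, the first of 4 listed start sites, and CTNNB1 at chr3:41199255-41199504.
CTNNA1 promoter: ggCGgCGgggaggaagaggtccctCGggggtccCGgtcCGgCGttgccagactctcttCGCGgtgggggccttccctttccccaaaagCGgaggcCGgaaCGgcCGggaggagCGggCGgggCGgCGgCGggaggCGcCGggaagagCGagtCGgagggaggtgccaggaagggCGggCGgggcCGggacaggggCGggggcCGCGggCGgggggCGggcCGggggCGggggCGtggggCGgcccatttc
CTNNB1 promoter: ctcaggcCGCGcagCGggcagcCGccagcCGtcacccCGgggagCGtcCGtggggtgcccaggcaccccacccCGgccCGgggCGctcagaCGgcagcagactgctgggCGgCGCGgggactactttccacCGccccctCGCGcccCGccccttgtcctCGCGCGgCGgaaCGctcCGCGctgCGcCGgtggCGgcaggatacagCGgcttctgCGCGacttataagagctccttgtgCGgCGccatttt
They held 33 and 34 CG dinucleotides with 80.0% and 74.4% G or C, both above the 17 and 66.0% of CDH2. CTNNA1 held a single AGGTG, whose first base lay 91 bases before the start, and CTNNB1 held no CACCT or AGGTG. RefSeq windows were found for 4 of the 9 members (CDH2, CDH4, CTNNA1 and CTNNB1), and CACCTG on either strand occurred in the first CDH4 window alone.

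By the smallest root mean square difference of centred log2 CPM over the 6 libraries, the genes most alike in pattern to CTNNA1 among 8705 genes of at least 5 CPM were AATF (0.0620) and YTHDF1 (0.0660). Those most alike to CTNNB1 were PAPSS1 (0.0433) and RCOR3 (0.0469). CTNNA1 and CTNNB1 differed from each other by 0.215 on the same measure, chiefly in ZEB1-KO replicate 1, where CTNNA1 lay 0.18 below and CTNNB1 0.24 above its own mean.

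CTNND1, whose product p120-catenin is made in most tissues, was counted at a level close to the floor. It was counted 12, 7 and 10 times in WT and 4, 19 and 9 times in ZEB1-KO clones, or 0.200 to 0.469 CPM over all libraries. The groups overlapped, and pooled counts of 32 against 29 gave a ratio between 0.703 and 2.06 (95% counting interval), which holds a ratio of 1. This count is uncertain. RefSeq (GRCh38.p14) lists a read-through gene, TMX2-CTNND1, whose span covers 99.4% of that of CTNND1, and its row in the deposited counts is 0 in all 6 libraries. Over all GENCODE 29 transcripts, the set used for exon overlaps, the 2 genes share 3.65% of CTNND1 exon bases. The exon share was not computed for RefSeq or for the authors' annotation, where it may differ. How the authors' counting treated a read that falls on both genes was not stated in what was used here.

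Partners of joined symbols differed by their place in the symbol. Among coding genes that are the second partner of a joined symbol in the deposited counts, as CTNND1 is, 86 of 112 (76.8%) had a mean below 1 CPM, against 44.2% of 18244 coding genes with no joined symbol. Among first partners, as TMX2 is, the share was 39 of 110 (35.5%), and TMX2 itself was at 103 to 167 CPM. In GENCODE 29, TMX2 shares 11.8% of its own exon bases with TMX2-CTNND1. The joined symbols themselves had 0 counts in all libraries in 89 of 122 cases. The part of shared exons in the CTNND1 count was not tested. For the other members the largest exon overlap with another GENCODE 29 gene was 11.1%, between CDH3 and an antisense gene, and LRRTM2, which lies on the opposite strand of CTNNA1 and shares 5.04% of its exon bases, had 165 counts over all libraries.

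Each of the 9 members had its highest level in a ZEB1-KO library, 5 of them in ZEB1-KO replicate 2, 3 in replicate 3 and 1 in replicate 1. Over all 13659 genes tested the highest library was a ZEB1-KO library for 51.8%, and ZEB1-KO replicate 2 alone for 3174 genes, the most of any library. For CDH1, CDH3, CDH4 and CDH11 this order rests on 1 to 4 counts in the highest library.

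Genes that work with the cadherin complex were drawn from 4 fixed lists of 72 genes, of which 51 were tested. In edgeR's quasi-likelihood test 0 of the 51 passed an adjusted p of 0.05, while 10 were higher and 2 lower at an unadjusted p below 0.05 (background 9.64% and 8.04% of all genes). DESeq2 called 7 of the 50 genes to which it gave an adjusted p higher and 0 lower (4.34% and 2.78% of all its genes). The authors' deposited table called 5 of 47 listed genes higher and 0 lower (2.82% and 1.92% of its genes). The median log2 fold change was 0.27 over the 51 genes and -0.0082 over all genes tested, with 35 of the 51 above 0 against 49.4% of all genes. The lists were chosen with earlier results of these data known, so these numbers only describe the listed genes. A shift of the lists as sets was not tested.

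Of 15 tested catenin relatives and junction linkers, 11 had a positive log2 fold change (median 0.23). JUP, whose product plakoglobin can take the place of beta-catenin on the cadherin tail, was at 0.596, 0.833 and 0.324 CPM for WT and 4.79, 4.08 and 3.33 CPM for ZEB1-KO clones. All ZEB1-KO values were at least 3.33 CPM and all WT values under 1 CPM. Its log2 fold change of 2.78 ± 0.43 (SE) gave an adjusted p of 0.0621 with edgeR's quasi-likelihood test and of 5.3e-07 with DESeq2. PVRL2, the gene for nectin-2, an immunoglobulin-type adhesion molecule of the same junction, averaged 3.25 ± 0.606 CPM for WT against 13.2 ± 8.17 CPM for ZEB1-KO (SD, n = 3 per group), with 22.5 CPM in ZEB1-KO replicate 2. Its edgeR adjusted p was 0.101, and that of DESeq2 was 5.1e-04. CTNNAL1, VCL (vinculin) and LIMA1, which bind alpha-catenin or actin, had log2 fold changes of 0.23, 0.15 and -0.19, none with an unadjusted p below 0.05. ACTN4 and CAMSAP3 of the same list had 0.78 and 1.11, with an unadjusted p below 0.05 and no overlap between groups. Their adjusted p-values were 0.223 and 0.222 with edgeR's quasi-likelihood test and 0.134 and 0.175 with DESeq2. The neural catenin gene CTNND2 had 0 counts in all libraries, and CTNNA2 had 2 counts in ZEB1-KO replicate 3 and 0 elsewhere.

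Of 19 tested genes for cadherin trafficking, phosphorylation and cleavage, 12 had a positive log2 fold change (median 0.24). The kinase gene SRC, whose product phosphorylates catenins, averaged 1.19 ± 0.387 CPM for WT against 4.30 ± 2.42 CPM for ZEB1-KO (SD, n = 3 per group), with no overlap between groups and an edgeR adjusted p of 0.123. NCSTN, a subunit of the gamma-secretase that cleaves cadherins, was at 26.0, 41.1 and 28.7 CPM for WT and 70.7, 93.7 and 43.5 CPM for ZEB1-KO clones, with an edgeR adjusted p of 0.138. DESeq2 called both higher, with adjusted p-values of 0.00812 and 0.0259. The protease gene ADAM10, which sheds the outer part of cadherins, had a log2 fold change of -0.011. RAC1 and PTPN1 were the 2 genes of the lists lower at an unadjusted p below 0.05, with log2 fold changes of -0.53 and -0.75 and edgeR adjusted p-values of 0.215 and 0.207.

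Of 14 tested genes for beta-catenin turnover and its nuclear partners, 9 had a positive log2 fold change (median 0.22). PYGO2 and BCL9L, coactivators that join beta-catenin on chromatin, had log2 fold changes of 1.66 and 1.79, edgeR adjusted p-values of 0.103 and 0.139, and no overlap between groups, and DESeq2 called both higher (adjusted p = 0.00147 and 0.0111). PYGO2 was at 3.28, 3.76 and 2.80 CPM for WT and 10.2, 14.9 and 6.01 CPM for ZEB1-KO clones. The scaffold gene APC and the kinase gene GSK3B of the beta-catenin destruction complex had log2 fold changes of -0.23 and 0.085. AXIN1 had 0.46, at an edgeR adjusted p of 0.555. The kinase gene GSK3A had 1.58, from means of 0.795 CPM for WT and 2.40 CPM for ZEB1-KO clones, with no overlap between groups. Its adjusted p was 0.151 with edgeR's quasi-likelihood test and 0.0485 with DESeq2. AXIN2, a target and inhibitor of Wnt signalling, was near the floor at 4 to 15 counts per library. LEF1, a DNA-binding partner of beta-catenin, was too low to be tested, counted 2, 5 and 7 times in WT and 1, 3 and 36 times in ZEB1-KO clones, highest in the same library as CDH2.

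**Figure D4:**
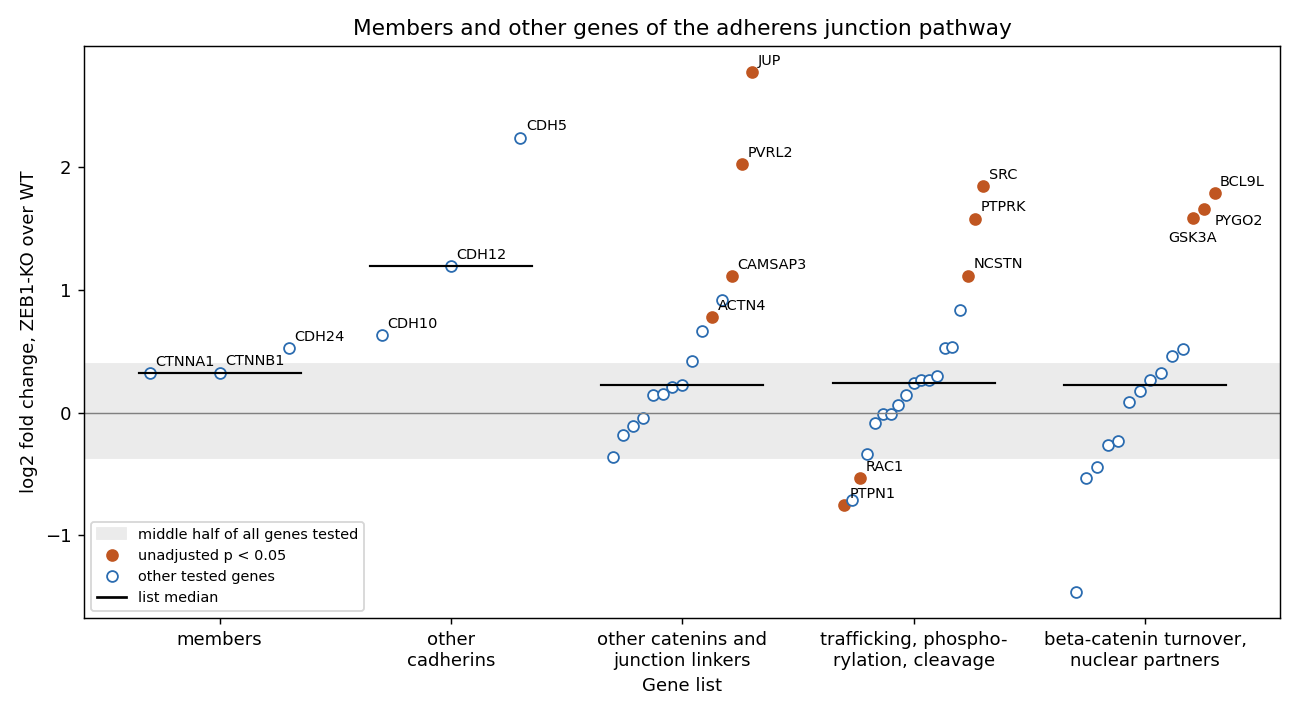
Log2 fold change of ZEB1-KO over WT for each tested gene (points) of the members and of 4 lists of other pathway genes, with list medians as black lines, orange points for an unadjusted p below 0.05 and a grey band for the range between the lower and upper quartile of all genes tested. The members CTNNA1 and CTNNB1 lie inside the band at 0.32 and 0.33 and CDH24 above it at 0.53, while JUP reaches 2.78 and PVRL2 2.02.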

How the data were processed

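Libraries of 3 WT and 3 ZEB1-KO clones were grouped by their titles. The authors deposited raw counts for 26334 gene symbols, and TPM values for 11013 of them, per the file headers. For the same 11013 genes their deposited table lists a log2 fold change, a mean log2 CPM, a score from the likelihood ratio test, and a raw and an adjusted p-value. TopHat2 2.1.0, HTSeq 0.6.1 and edgeR 3.2.2 with builds hg19 and GRCh37 are named in the submitters' processing notes. Their settings and the gene lengths behind the TPM were not stated in what was used here.

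Counts were tested with edgeR 4.0.16 (R 4.3.3): filterByExpr with a minimum of 10 and a total of 15, leaving 13659 genes, TMM scaling, glmQLFit and a two-sided glmQLFTest. P-values were adjusted by Benjamini-Hochberg over those genes, with 0.05 as threshold. The SE and 95% interval of a log2 fold change come from its F statistic. Counting intervals are exact binomial intervals of pooled counts. Like the floor of 3 counts they cover counting error only, because amplified reads without identifiers are not independent molecules. The code was tested on simulated data. The chi-square per gene between any pair of libraries was 127 or more, so none was a copy.

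Alternatives were other scalings and filters, DESeq2 1.42.0, the likelihood ratio test, limma 3.58.1 (voom, or log2 of TPM plus 1 or 0.1), the replicate number as a block, and leaving out each library. DESeq2 without each library and the likelihood ratio test without a filter were chosen after seeing the data. Named were the 9 members, ZEB1, from each of 4 lists up to 4 genes past the threshold or else the 2 of smallest p, and the 2 genes most alike in pattern to each tested member with a mean of at least 5 CPM. Other genes were named after their values were seen. Members and lists were chosen with earlier results of these data known.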

Additional observations from a re-analysis of the deposited data

How the results depend on the processing

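Every alternative left the log2 fold changes of CTNNA1, CTNNB1 and CDH24 positive and short of an adjusted p of 0.05 wherever they were tested, and 0 members were called lower. CTNNA1 ranged from 0.21 to 0.58, CTNNB1 from 0.24 to 0.61 and CDH24 from 0.13 to 0.79. Scaling by library size alone moved the median of all genes to 0.14, and the TPM scales moved it to 0.20 to 0.27. The number of members called higher was 0, and it was 1 (CDH2) with DESeq2 and with the likelihood ratio test without a filter, and from 0 to 1 when DESeq2 was run without each library. Pathway genes called higher numbered 0, against 7 with DESeq2, 5 with the likelihood ratio test, 4 with that test without a filter, 1 without a filter, 1 on each TPM scale, and, when DESeq2 was run without each library in the order WT 1 to 3 and ZEB1-KO 1 to 3, 6, 5, 3, 5, 3 and 7. All genes called numbered 24, against 134 without a filter, 935 with DESeq2, 617 with the likelihood ratio test, 555 with that test without a filter, and 104, 89 and 93 with limma on log2 TPM plus 1, plus 0.1 and plus 1 without a filter on low values. They numbered 5 to 25 without each library and, with DESeq2 without each library in that order, 1156, 638, 534, 714, 711 and 1415. With the replicate number as a block, CTNNA1 had a log2 fold change of 0.31, CTNNB1 of 0.34 and CDH24 of 0.49, with 0 members called. Deviations of same-numbered libraries correlated at 0.022, 0.0071 and 0.22 over genes, and those of differently numbered libraries at -0.124 to 0.104. The value for replicate 3 was the highest, but the titles state no pairing, so the numbers were not taken as pairs. CDH24 was not tested with the filter of 1 CPM or on the TPM scales. Depth limits CDH1, CDH3, CDH4, CDH11 and, in WT clones, CDH2, whose counts lie at or under the floor in nearly all libraries.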
